A study of Mus musculus with 67 samples.

Results

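Pax1, Pax9, Emx2 and Nkx3-2 are transcription factor genes known from the skeleton of the shoulder girdle and the vertebral column. They were taken as the rows with these names in the gene tables of 14 RNA-seq libraries from mouse forelimb buds, which gave 4 genes among 46983 gene IDs. The 4 groups were whole buds at E9.25 (21 to 23 somites), WT (n = 3) and Gli3-/- (n = 4), and the anterior part of buds at E10.5 (32 to 35 somites), WT (n = 4) and Gli3-/- (n = 3). All embryos were of Swiss Webster background, and the mutants were null through the Xt-J allele of Gli3, present in every cell. Each library pooled buds, about 4 pairs for the earlier stage and 2 pairs for the later one per the sample records, so that embryos within a library cannot be separated, and the study states that several litters went into a pool. The E9.25 and E10.5 buds differ in dissection as well as in age, so that stage and the anterior cut cannot be told apart.

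GLI3 is a zinc finger transcription factor of the HH pathway, and in cells that receive no HH ligand it is cleaved to a repressor of HH target genes. Pax1 and Pax9 are closely related paired box genes, both known from the sclerotome, the part of the somite that forms vertebrae and ribs. Pax1 is also known from the anterior proximal limb bud and from the shoulder girdle, and mice with Pax1 mutations have scapula defects. Emx2 encodes a homeodomain factor that is required for the blade of the scapula, and Nkx3-2 (also called Bapx1) encodes a homeodomain repressor that promotes cartilage formation. The anterior part of the early limb bud lies far from the posterior source of SHH, and it contributes proximal and girdle structures.

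The sequence before the start of Pax1 is shown because Pax1 had the lowest log2 fold change of all genes tested at E10.5, and that of Pax9 because it is the close relative that stayed at trace levels in the same libraries. All 4 genes matched the RefSeq promoter table (build GRCm38.p6). For Pax1 the 250 bases before the start given there are chr2:147364744-147364993, and for Pax9 they are chr12:56695221-56695470, both on the plus strand. Both lie inside the longer spans that the deposited tables and RefSeq list for these genes, which begin at 147361930 for Pax1 and at 56691693 for Pax9 in RefSeq, so that they may be within other transcripts of the same gene. They are written 5′ to 3′ in lower case, with the GC box GGGCGG and the CCAAT box CCAAT, searched on both strands, in capitals.
Pax1: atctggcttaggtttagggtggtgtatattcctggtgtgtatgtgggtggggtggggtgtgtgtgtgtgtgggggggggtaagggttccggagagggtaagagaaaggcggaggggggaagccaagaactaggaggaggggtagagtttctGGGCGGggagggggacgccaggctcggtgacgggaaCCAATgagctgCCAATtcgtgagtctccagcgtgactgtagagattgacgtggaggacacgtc
Pax9: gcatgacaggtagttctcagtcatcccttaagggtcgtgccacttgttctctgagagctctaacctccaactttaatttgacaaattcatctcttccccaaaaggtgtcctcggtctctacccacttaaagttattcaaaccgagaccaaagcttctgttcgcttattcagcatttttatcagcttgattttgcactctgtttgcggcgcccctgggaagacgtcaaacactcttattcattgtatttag
The Pax1 stretch held 1 GC box and 2 CCAAT boxes and the Pax9 stretch held neither. Over all 32841 promoters of this length, 32.75% held a GC box and 33.86% a CCAAT box. The stretch before the RefSeq start of Emx2 held 2 GC boxes, which overlap each other, and 1 CCAAT box, and that of Nkx3-2 held 1 GC box. The Emx2 and Nkx3-2 stretches lie inside the spans that the deposited tables list for these genes, so that they may be transcribed. That of Emx2 also overlaps the listed antisense gene Emx2os. None of the 4 stretches held the letters TATAAA, found in 12.37% of all promoters, or the GLI consensus GACCACCCA, found in 0.23% of them. The GC content was 58.8% for Pax1, 43.6% for Pax9, 67.2% for Emx2 and 68.8% for Nkx3-2, beside a median of 52.4% over all promoters. The ratio of observed to expected CpG was 0.665, 0.617, 0.85 and 0.715 in the same order, all above the median of 0.374. These matches describe letters in the windows, and the absence of a match says nothing of GLI3.

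Expression was read as TPM, which scales reads for transcript length and library size, and differences were tested on log2(TPM + 1) with limma across all genes that reached a TPM of 1 in 3 or more libraries of the comparison. Depth was estimated at 38.1 to 56.8 M reads per library, so that a TPM of 1 rested on 20.7 to 29.3 reads per kilobase of transcript. The targeted gene was checked first. At E10.5, Gli3 was at 73.4 to 89.7 TPM in WT and at 38.7 to 40.9 TPM in Gli3-/- libraries (log2 fold change −1.01, SE 0.08, limma adjusted p = 0.000335). At E9.25 the Gli3-/- libraries held 14.3 to 20.8 TPM, and the library labelled WT replicate 2 held 15.8 TPM, inside that range. WT replicates 1 and 3 held 44.2 and 44.6 TPM. WT replicate 2 also had the fewest genes at a TPM of 1 or more of the 14 libraries, 13276, beside 14584 and 14162 in WT replicates 1 and 3. The reason for its low Gli3 value was not tested. The log2 fold change of Gli3 at E9.25 was −0.74 (SE 0.32, limma adjusted p = 0.223) and did not pass, whereas without WT replicate 2 it was −1.22 (adjusted p = 0.0415). The E9.25 differences of Gli3, Ptch1, Emx2 and Tbx15 are therefore also given without that library, and those of other single genes only with it. Ptch1, the receptor gene that HH signalling induces, was higher with loss of Gli3 at both stages, by 2.28 (SE 0.32, limma adjusted p = 0.0309) and 1.58 (SE 0.12, adjusted p = 0.000287) on the log2 scale. At E9.25 Ptch1 passed without WT replicate 2 (1.89, adjusted p = 0.0197) but not without WT replicate 3 or Gli3-/- replicate 1, 2 or 3 (adjusted p of 0.075 to 0.152). The markers of limb mesenchyme (Tbx5, Prrx1, Lmx1b, Twist1 and Msx1) summed to 595 to 734 TPM in WT and 523 to 783 TPM in Gli3-/- libraries at E9.25. At E10.5 they summed to 749 to 907 TPM in WT and 561 to 605 TPM in Gli3-/- libraries, with no overlap. Of the 5 markers, 3 passed as lower at E10.5, beside 2.93% of all tested genes. The hindlimb markers Tbx4 and Pitx1 summed to 0.765 to 8.65 TPM over all libraries.

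Pax1 mRNA was found at E10.5 in WT and hardly anywhere else. The 4 anterior E10.5 WT libraries held 16.2, 8.27, 30.7 and 34.6 TPM, in the order of their numbers. The 3 E10.5 Gli3-/- libraries held 0.136, 0.172 and 0 TPM. The lowest WT library was far above the highest Gli3-/- library, and the WT libraries had a mean of 22.4 ± 12.3 TPM (SD, n = 4). The mean in Gli3-/- libraries was 0.103 ± 0.0906 TPM (SD, n = 3), which rests on about 3.82 reads per kilobase in each of the 2 libraries above 0.

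The log2 fold change of Pax1 with loss of Gli3 at E10.5 was −4.23 (SE 0.40, 95% interval −5.13 to −3.32, limma adjusted p = 0.000645), the lowest of 15654 genes tested. Of the 4 genes only Pax1 and Emx2 passed the filter at this stage, and both were lower, where 4.77% of all tested genes passed and 2.93% were lower. Pax1 entered the test only through its level in WT, so that it had to differ to be tested at all. The value was −4.61 (adjusted p = 0.000235) without WT replicate 2. With 0.1 in place of 1 added to the TPM it was −6.72, since the added constant limits the fold of a gene near 0. In these bulk libraries, fewer cells that express a gene and less RNA per cell cannot be told apart.

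At E9.25 all 3 WT libraries listed Pax1 at 0, as did 3 of the 4 Gli3-/- libraries, and Gli3-/- replicate 4 held 0.182 TPM, or 5.35 reads per kilobase. Pax1 was below the filter in this comparison. Between the stages, Pax1, which entered this test only through E10.5 WT, was higher at E10.5 in WT by 4.36 on the log2(TPM + 1) scale (SE 0.42, limma adjusted p = 0.000191), a fitted value that depends on the added constant and is no bound, since every E9.25 WT library was at 0. In that comparison 38.1% of all tested genes were higher at E10.5. In Gli3-/- buds the range was 0 to 0.182 TPM at E9.25 and 0 to 0.172 TPM at E10.5, and the groups overlapped. The interaction of stage and genotype for Pax1, the change at E10.5 minus that at E9.25, was −4.29 and restates the E10.5 difference, since Pax1 was at 0 in every E9.25 WT library and no decrease could be seen at that stage.

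**Figure D1:**
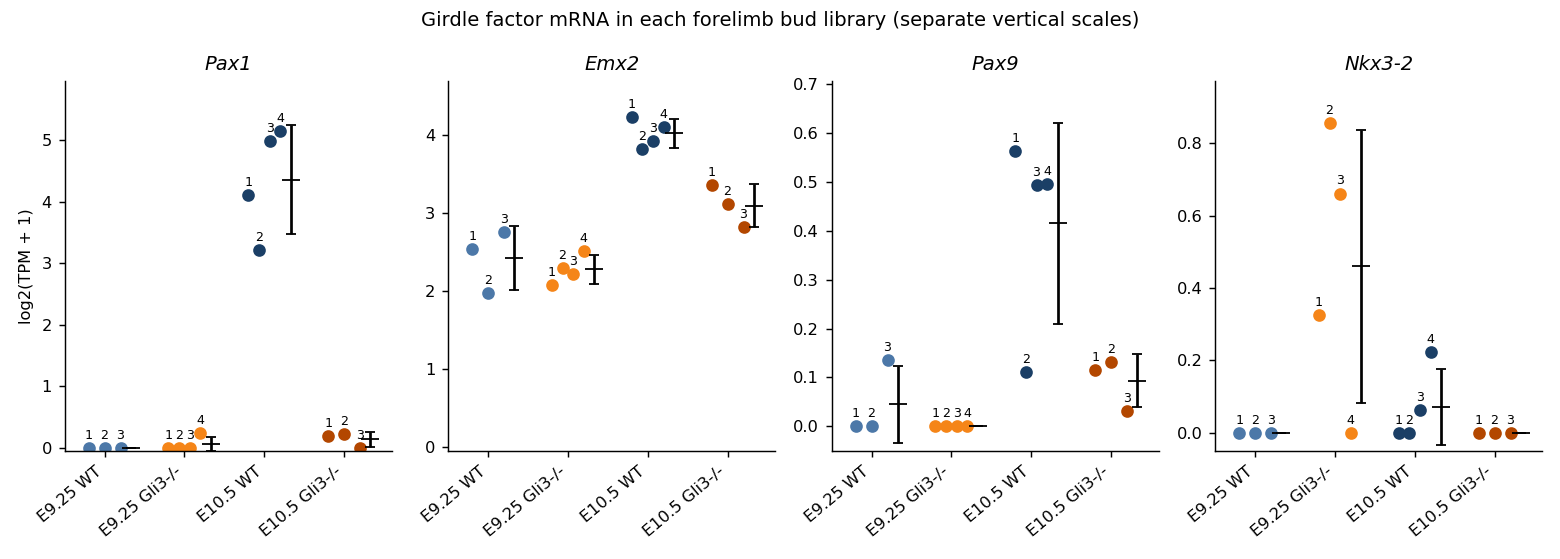
Levels of the 4 genes as log2(TPM + 1) in each library, with the replicate number above each point and the group mean ± SD as a bar beside it (n = 3, 4, 4 and 3, and a separate vertical scale for each gene). Pax1 was between 3.21 and 5.15 in E10.5 WT and at most 0.24 elsewhere, Emx2 was at least 1.97 in every library, and Pax9 and Nkx3-2 stayed below 0.86.

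Emx2 mRNA was present in every library and rose between the stages. At E9.25 the WT libraries held 4.81, 2.93 and 5.79 TPM and the Gli3-/- libraries 3.22, 3.94, 3.67 and 4.72 TPM. The groups overlapped, and WT replicate 2, the library with the low Gli3 value, was the lowest of all 7. The log2 fold change was −0.15 (SE 0.23, 95% interval −0.66 to 0.37, limma adjusted p = 0.693). The median gene was higher in Gli3-/- libraries by 0.23, and measured from it Emx2 was at −0.37. Without WT replicate 2 it was −0.37 (adjusted p = 0.44), and without WT replicate 3 it was 0.023. No member passed at E9.25, where 0.136% of all tested genes did.

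At E10.5 the WT libraries held 17.9, 13.2, 14.2 and 16.3 TPM of Emx2, and the Gli3-/- libraries 9.27, 7.69 and 6.06 TPM. All WT libraries were above all Gli3-/- libraries. The means were 15.4 ± 2.08 TPM (SD, n = 4) and 7.67 ± 1.6 TPM (SD, n = 3), a ratio of 0.499. The log2 fold change was −0.93 (SE 0.15, 95% interval −1.26 to −0.59, limma adjusted p = 0.00883), which ranked 224 from the lowest of 15654 genes tested. Leaving out any 1 library gave −1.06 to −0.79, past the threshold each time.

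In both genotypes Emx2 was higher at the later stage, with ratios of the mean TPM of 3.41 in WT and 1.97 in Gli3-/- buds. The log2 difference was 1.60 in WT (SE 0.21, limma adjusted p = 0.000689) and 0.82 in Gli3-/- buds (SE 0.17, adjusted p = 0.00679). Measured from the median gene these values were 1.26 and 0.76. In the Gli3-/- comparison 15.8% of all tested genes were higher at E10.5. The interaction of stage and genotype for Emx2 was −0.78 (SE 0.27, 95% interval −1.37 to −0.19) and did not pass (limma adjusted p = 0.152). In this test 2.13% of all tested genes passed. Emx2 mRNA remained in the Gli3-/- anterior bud at a level above that of the E9.25 buds, while Pax1 was at or near 0.

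**Figure D2:**
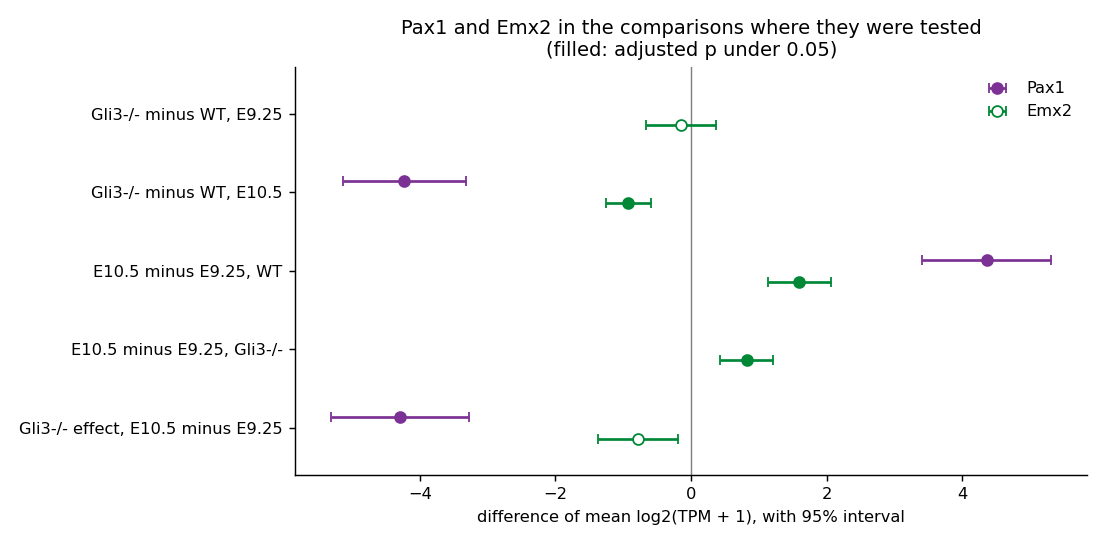
Differences of mean log2(TPM + 1) for Pax1 and Emx2 with their 95% intervals, in each comparison in which the gene passed the filter on low TPM. With loss of Gli3 at E10.5 the value was −4.23 for Pax1 and −0.93 for Emx2, and the interaction interval of Emx2 reached from −1.37 to −0.19.

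Pax9 stayed at trace levels. The E10.5 WT libraries held 0.477, 0.0796, 0.407 and 0.41 TPM, and the E10.5 Gli3-/- libraries 0.0831, 0.0961 and 0.0221 TPM. WT replicates 1, 3 and 4 were above all Gli3-/- libraries and WT replicate 2 lay within their range. These levels rest on 10.1 to 13.3 reads per kilobase in the 3 high libraries and on at most 2.33 in the other E10.5 libraries. At E9.25 Pax9 was listed at 0 in 6 of 7 libraries, and WT replicate 3 held 0.0993 TPM. Pax9 was below the filter in every comparison. With no filter, the difference at E10.5 was −0.32 (SE 0.11, limma adjusted p = 0.245) and the stage difference in WT was 0.37 (SE 0.11, adjusted p = 0.0531), neither of which passed.

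Nkx3-2 was also below the filter throughout, and it was the member whose few reads lay mostly in the E9.25 Gli3-/- group. Those 4 libraries held 0.252, 0.81, 0.581 and 0 TPM, whereas all 3 E9.25 WT libraries were listed at 0. Replicates 2 and 3 were the highest, with 17 and 16.9 reads per kilobase, and replicate 4 was at 0 like the WT group, so that the groups overlapped. At E10.5 only WT replicates 3 and 4 were above 0, with 0.0451 and 0.168 TPM, and all Gli3-/- libraries were listed at 0. With no filter the difference at E9.25 was 0.46 (SE 0.19, limma adjusted p = 0.374), which did not pass.

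The 4 genes differed in the order of their groups. Among group means, Pax1 and Pax9 were highest in E10.5 WT, with all other groups near 0. Emx2 was highest in E10.5 WT and next in E10.5 Gli3-/-, and its E9.25 groups did not differ beyond their spread. Nkx3-2 was highest in E9.25 Gli3-/-. Within E10.5 WT, Pax1 was above Emx2 in replicates 3 and 4 and below it in replicates 1 and 2, on the TPM scale, which accounts for transcript length.

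The same E10.5 WT library, replicate 2, was lowest for Pax1, Pax9 and Emx2, and it stood apart in depth, limb mesenchyme markers and posterior genes. It was estimated at 38.6 M reads, beside 48.4 to 53.5 M in the other WT libraries of this stage. Its limb mesenchyme markers summed to 749 TPM, beside 870 to 907 TPM. In replicate 2 the posterior limb markers Shh, Hand2, Hoxd12 and Hoxd13 summed to 49.6 TPM, beside 23.8 to 29.4 TPM in the other WT libraries. Hoxd13, a gene of the posterior and distal bud, was at 13.5 TPM there and at 3.57, 5.65 and 2.53 TPM in replicates 1, 3 and 4, while Shh was at 0 in all 4. In the E10.5 Gli3-/- libraries the 4 markers summed to 162 to 304 TPM, and all 4 passed as higher, where 4.77% of all tested genes passed in either direction. Shh and Hoxd12 reached the filter only through the Gli3-/- libraries, so that they were tested only because they were high there. The limb mesenchyme sum was also lower in these Gli3-/- libraries, as given above. The part of either marker list, or of depth, in the Pax1, Pax9 and Emx2 values was not tested. Pax1 and Emx2 were lower in Gli3-/- libraries with WT replicate 2 left out as well, Pax1 by the value given above and Emx2 by −0.99 (limma adjusted p = 0.0123).

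The Nkx3-2 values lay beside those of lateral plate genes. The flank list (Foxf1, Foxf2, Gata4, Gata5, Gata6, Hand1 and Wt1) summed to 144, 210, 223 and 81.2 TPM in the 4 E9.25 Gli3-/- libraries, beside 23.8 to 64.5 TPM in E9.25 WT and at most 3.98 TPM at E10.5. Replicates 2 and 3, with the most Nkx3-2, had the highest sums, and replicate 4, with none, had the lowest. Foxf1, a forkhead gene of lateral plate and visceral mesoderm, was at 23.7, 28.8, 35.5 and 12.1 TPM in these libraries and at 2.8, 0.221 and 0.495 TPM in E9.25 WT. Foxf1 and Gata4 passed as higher, 2 of the 6 flank genes tested, where 0.136% of all tested genes passed in either direction. Foxf1 reached the filter only through the Gli3-/- libraries, so that it was tested only because it was high there. No gene of the list was at 0 everywhere. Other lists separated the E9.25 groups as well. The nephric markers summed to 23.6, 34.2, 33.4 and 22.8 TPM in the 4 Gli3-/- libraries and to 7.81 to 11.6 TPM in WT. The endothelial markers summed to 99.4 to 142 TPM against 56.9 to 89 TPM in WT, the foregut markers to 52.7 to 63.2 TPM against 35.2 to 46.1 TPM, and the neural markers to 3.41 to 5.33 TPM against 6.82 to 13.6 TPM. The part of these tissues in the Nkx3-2 values was not tested.

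**Figure D3:**
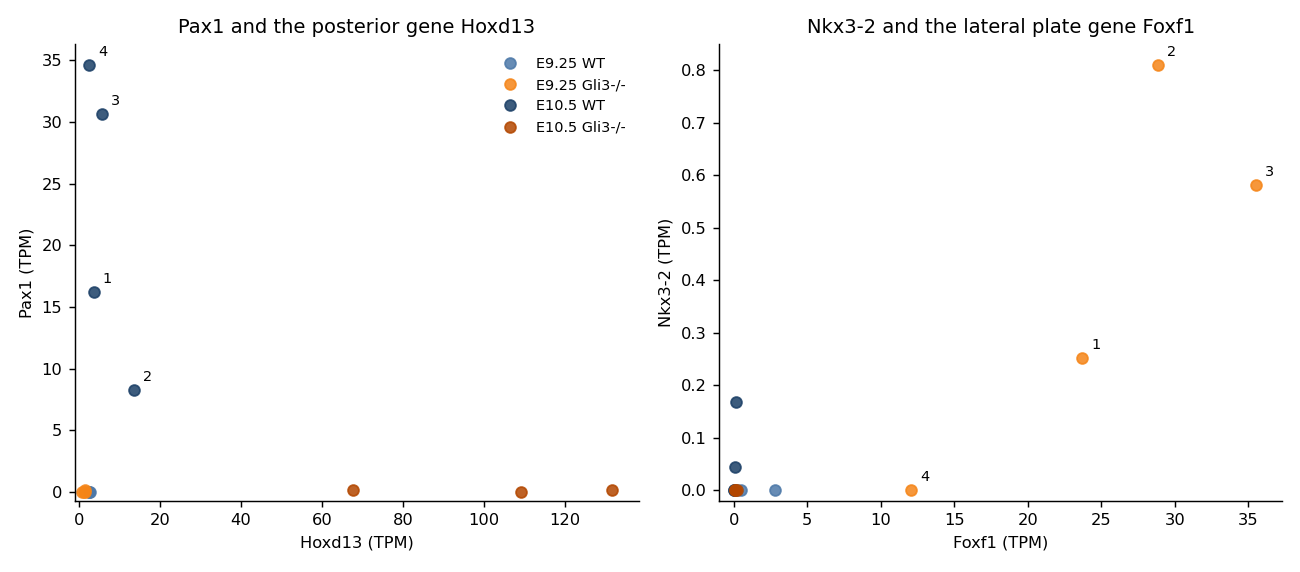
TPM of Pax1 against the posterior gene Hoxd13 (left) and of Nkx3-2 against the lateral plate gene Foxf1 (right), with 1 point per library and replicate numbers beside the E10.5 WT points (left) and the E9.25 Gli3-/- points (right). E10.5 WT replicate 2 had the most Hoxd13 (13.5) and the least Pax1 (8.27) of its group, and E9.25 Gli3-/- replicate 4 had the least Foxf1 (12.1) and no Nkx3-2.

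Markers of other tissues in which these genes are known were mixed in level. Of 5 foregut markers, Nkx2-1, Foxa1 and Foxa2 were below 1 TPM in all 14 libraries, with Nkx2-1 at 0, whereas Cldn6 was at 26.4 to 58.2 TPM and Sox17 at 1.44 to 6.21 TPM. Of the somite markers, Uncx and Pax7 were below 1 TPM throughout, whereas Tcf15 was at 9.09 to 19.4 TPM at E10.5. The somite list of 10 genes summed to 67.2 to 84.3 TPM in E10.5 WT and to 76.4 to 110 TPM in E10.5 Gli3-/-, and at E9.25 it summed to 22.9 to 34.9 TPM. Meox2 gave much of the E10.5 sum, with 22.6 to 38.5 TPM in WT and 50 to 63.3 TPM in Gli3-/- libraries, and the median somite gene tested was lower in Gli3-/- by 0.28 on the log2 scale, where the median of all genes was lower by 0.02. The part of somite tissue in the Pax1 and Pax9 values was not tested. With loss of Gli3, 1 somite gene was higher of 5 tested at E9.25 and 1 of 6 at E10.5. Of all tested genes, 0.136% passed at E9.25 and 4.77% at E10.5 in either direction, shares that also stand beside the counts below. No single foregut, neural, endothelial or blood marker passed at either stage, and blood markers summed to 6912 to 33323 TPM. Nephric markers gave 1 higher of 4 at E9.25 and 1 lower of 2 at E10.5, muscle progenitor markers 1 lower of 4 at E10.5 and ectoderm markers 1 higher of 6 at E10.5.

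Of 16 genes known from the shoulder girdle and proximal limb, 10 were lower and 0 higher in Gli3-/- anterior buds at E10.5, beside the 2.93% of all tested genes that were lower. The list was chosen with earlier results of these data known, so that this count describes the list and is no independent test. The median log2 fold change was −0.54, against −0.02 for all tested genes. The largest were Alx4 (−3.51, SE 0.37, limma adjusted p = 0.00103), an aristaless-like homeobox gene of the anterior limb, and Hoxc6 (−2.05, SE 0.20, adjusted p = 0.000768), a HOX gene of the forelimb level. Alx1 (−1.45, SE 0.16, adjusted p = 0.00136), a relative of Alx4, followed, with Meis1 (−1.40, SE 0.13, adjusted p = 0.000586) and Meis2 (−1.25, SE 0.14, adjusted p = 0.00119), homeobox genes of the proximal limb. Alx4 was at 52.9, 31.9, 51 and 51 TPM in WT and at 6.22, 3.73 and 1.05 TPM in Gli3-/-, so that replicate 2 was again the lowest WT library and the groups did not overlap. Pax1 fell by more than each of these genes, although Pax1 was near 0 in the Gli3-/- libraries and Alx4 was not, and Emx2 fell by less than the 5 named.

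At E9.25, 0 of the 16 girdle genes were higher and 1 was lower, where 0.0271% of all tested genes were lower, and the median was 0.31 against 0.23 for all genes. The 1 gene was Tbx15, a T-box gene needed for the scapula, at 3.24, 5.72 and 6.38 TPM in WT and 0.869, 0.56, 0.272 and 1.07 TPM in Gli3-/- libraries (−1.84, SE 0.26, limma adjusted p = 0.034). Like Pax1 at E10.5, Tbx15 entered this test only through its level in WT. It did not pass without WT replicate 2 (−1.75, adjusted p = 0.0719), nor in 4 of the other 6 fits with 1 library left out. At E10.5 Tbx15 was at 91.3 to 115 TPM in WT and at 118 to 146 TPM in Gli3-/-, and did not pass.

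**Figure D4:**
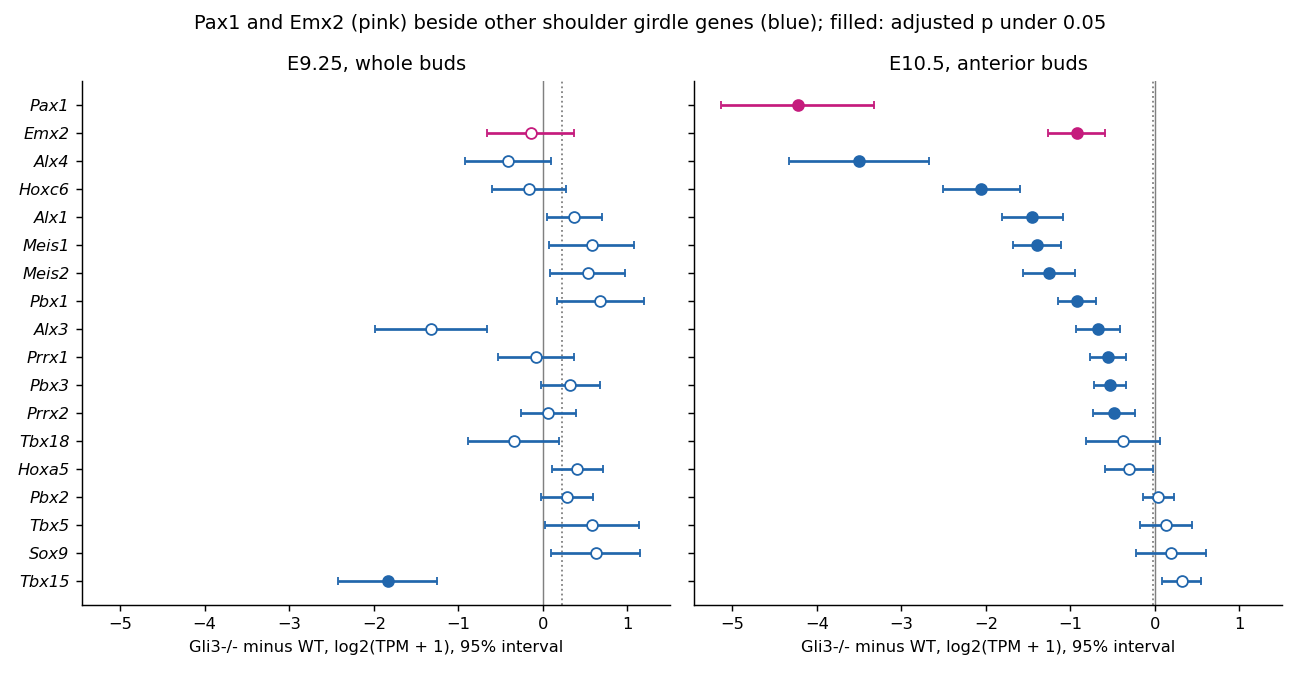
Log2 fold changes with 95% intervals for Pax1 and Emx2 (pink) and the 16 other girdle genes (blue), Gli3-/- against WT, at E9.25 (left) and E10.5 (right). Filled points passed the threshold, and the dotted lines mark the median of all tested genes, 0.23 and −0.02. At E10.5, 10 of the 16 girdle genes were lower and passed, and at E9.25 1 did.

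None of the related family members that could be tested passed with loss of Gli3, 0 of 1 at E9.25 and 0 of 2 at E10.5, out of 9 on the list, of which 7 stayed below 1 TPM everywhere. Of 9 cartilage genes, 2 of 6 tested were lower at E10.5, beside 2.93% of all tested genes. At E9.25 0 of 5 passed, beside 0.136% of all tested genes. The 2 were Runx2, a runt factor of bone and hypertrophic cartilage (−1.60, SE 0.28, limma adjusted p = 0.0126), and Sox6, an HMG box factor that acts with SOX9 in cartilage (−0.86, SE 0.18, adjusted p = 0.0299). Runx2 was at 3.24, 1.53, 3.49 and 5.7 TPM in E10.5 WT and at 0.354, 0.523 and 0.338 TPM in Gli3-/-, with no overlap. Like Pax1, it entered the test only through its level in WT. Runx2 did not pass without Gli3-/- replicate 3 (adjusted p = 0.053). Sox6 passed in only 2 of 7 fits when single libraries were left out.

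Over the 14 libraries, the genes with the most similar pattern to Pax1 were Aloxe3 (Pearson r of log2(TPM + 1) = 0.997), Gm9722 (0.992) and Rprm (0.985). Aloxe3 was at 1.04, 0.652, 1.25 and 1.2 TPM in E10.5 WT and at 0 in the other 10 libraries. For Emx2 they were Rxfp2 (0.985), Eya4 (0.972) and Srgap3 (0.970), each of which had its highest group mean in E10.5 WT. For Pax9 they were AI646519 (0.954), Gm13148 (0.941) and Runx2 (0.924), and for Nkx3-2 they were Fzd4 (0.924), the lateral plate RNA Fendrr (0.914) and Kcna5 (0.907). The 14 points share stage, dissection, genotype and depth, and at most 16368 genes were compared, so these values describe the libraries.

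AI646519, the gene most like Pax9, lies not beside Pax9 but beside Pax1. It spans chr2:147361541-147362409 on the minus strand in the deposited tables and overlaps the first 485 bases of the listed Pax1 gene (chr2:147361925-147393295, plus strand). AI646519 was at 1.2, 0.275, 1.35 and 1.64 TPM in E10.5 WT and at 0 in the other 10 libraries. WT replicate 2 was again the lowest. The difference with loss of Gli3 at E10.5 was −1.03 (SE 0.24, limma adjusted p = 0.045), a fitted value against a group at 0. AI646519 entered this test only through its level in WT, and without WT replicate 1, 3 or 4 it fell below the filter. Of the 4 fits with a library left out that could test it, 1 passed. It did not pass with any of the 3 Gli3-/- libraries left out (adjusted p of 0.11 to 0.137). Emx2os, the antisense gene of Emx2, overlaps the first 264 bases of the listed Emx2 gene (chr19:59458372-59465357). It was at 1.78, 1.17, 0.868 and 1.61 TPM in E10.5 WT and at 0.712, 0.617 and 0.553 TPM in Gli3-/-, with no overlap between the groups (−0.52, SE 0.17, limma adjusted p = 0.134, which did not pass). Emx2os also reached the filter only through E10.5 WT, and at E9.25 it was at most 0.3 TPM. Whether reads were assigned by strand is not stated, so that reads in the shared stretches may have been counted for either gene. With the TPM of Emx2 and Emx2os summed, an alternative chosen after seeing the data, the difference at E10.5 was −0.94 (adjusted p = 0.00865).

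The nearest genes that were expressed did not pass. On either side of Pax1 these were Xrn2, 283925 bases away, and Gm14108, 678051 bases away, and of Emx2 they were Pdzd8, at 112592 bases, and Rab11fip2, at 437527 bases. Xrn2 was at 102 to 119 TPM in E10.5 WT and at 105 to 127 TPM in Gli3-/- libraries, and Pdzd8 at 23.6 to 28.6 TPM and 26.2 to 27.6 TPM. Pax9 (chr12:56691767-56712822) overlaps the 3′ end of Slc25a21 by 189 bases and also Gm15524, which was listed at 0 everywhere, and its nearest expressed genes without overlap were Gm6265 and Prps1l3. Nkx3-2 (chr5:41761483-41764501, minus strand) overlaps no listed gene and lies between Rab28 and Bod1l.

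**Figure D5:**
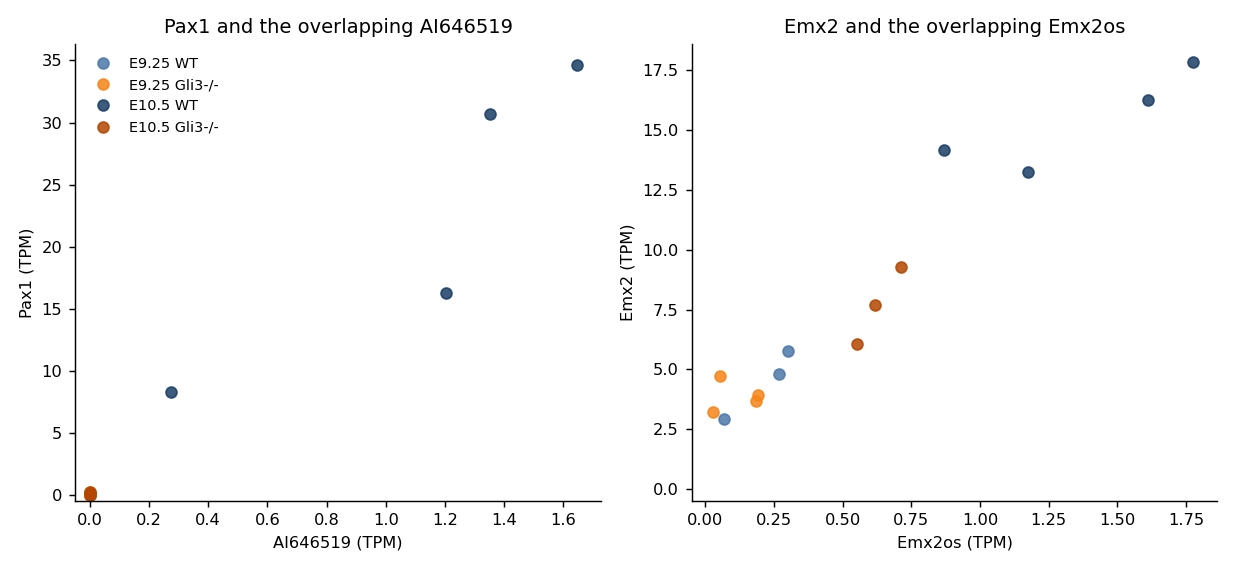
TPM of Pax1 against AI646519 (left) and of Emx2 against Emx2os (right), with 1 point per library. AI646519 was above 0 only in the 4 E10.5 WT libraries (0.275 to 1.64 TPM), and Emx2os was at 0.868 to 1.78 TPM in E10.5 WT, above the 0.553 to 0.712 TPM of E10.5 Gli3-/-.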

How the data were processed

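RNA was sequenced from 14 pools of forelimb buds as single reads of 100 bases, which the authors aligned with HISAT2. The authors deposited, per Ensembl gene ID, the coverage (mean signal per base, used with FPKM only to estimate reads), FPKM scaled to the reads of the library, and TPM scaled to a common total. The tool, annotation and use of strand are not given in the sources used here; 99.8% of the gene IDs with a matching symbol overlapped that gene in GRCm38.p6. The authors tested counts with DESeq2, and since no counts were used here, TPM was summed per gene ID and put on the log2(TPM + 1) scale. limma 3.58.1 (R 4.3.3; lmFit, then eBayes with its trend option) was run on genes that reached a TPM of 1 in 3 or more of the compared libraries. P-values were two-sided, Benjamini-Hochberg adjusted over all genes, with a threshold of 0.05. Stage was compared within each genotype, and the interaction used all 14 libraries. P-values measure the spread between pools.

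The 4 genes, the gene lists and the tests were chosen with earlier results of these data known. Named besides the 4 genes were Gli3 and Ptch1 as checks, girdle genes that passed with loss of Gli3 (at most the 5 largest per direction), related and cartilage genes that passed, the 3 most similar genes per member, and overlapping or nearest expressed genes. Marker genes set beside a result were chosen after their values were seen. Some listed genes are not reported here. Libraries are numbered by their titles; the deposited tables of E10.5 Gli3-/- carry other numbers. Libraries with the same title number did not deviate together on average (mean r of −0.18 at E9.25 and −0.05 at E10.5). With 3 pairs at each stage, this check cannot exclude a pairing. The settings varied were the pseudocount (0.1), the filter (none, or a TPM of 5), no trend, size factors by the median of ratios, quantile normalization, library weights, a replicate block, 1 model of all libraries and each library left out. The fit was tested on simulated libraries: of 100 genes moved by 1 log2 unit it found 60 in the E9.25 design and 92 in the E10.5 design, and of 100 moved by 2 units 95 and 97. Other steps used Python 3.11.15, pandas 2.3.3, NumPy 2.4.6 and matplotlib 3.10.9.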

Additional observations from a re-analysis of the deposited data

Results flagged for a closer look

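Among the groups of 4 libraries, 10 gene and group combinations of the 4 genes, AI646519 and Emx2os were examined for a library far from the others, and 2 had one, where chance gives about 1 in 20. Pax9 was low in E10.5 WT replicate 2, with a gap to the next library of 0.846 of the whole range on the log2(TPM + 1) scale, and this library was also the lowest for Pax1, Emx2, Alx4 and AI646519. Pax1 was above 0 in E9.25 Gli3-/- replicate 4 alone of its group, so that the gap had to make up the whole range (1.0), on 5.35 reads per kilobase.

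The interaction of stage and genotype in limma passed for Pax1 (−4.29 on the log2 scale), which was at 0 in all E9.25 WT libraries and entered the test only through E10.5 WT, so that the value restates the E10.5 difference. The effect of losing Gli3 differed between E10.5 and E9.25 by this test for 8 named girdle and cartilage genes, beside 2.13% of all tested genes. These genes were named because they had passed with loss of Gli3 at E9.25 or at E10.5, so that their count is no separate result. Tbx15 was the one with a positive value, 2.15, as it was lower at E9.25 only. The others were Alx4 with −3.09, Meis1 with −1.98, Hoxc6 with −1.89, Alx1 with −1.82, Meis2 with −1.79, Sox6 with −1.71 and Runx2 with −1.49. Runx2 was below 1 TPM in every E9.25 library and entered this test only through E10.5 WT. No clear decrease could be seen for Runx2 at E9.25, so that its value restates the E10.5 difference. Alx1, Alx4, Hoxc6, Meis1, Meis2 and Tbx15 passed in all 14 fits that each left out 1 library, whereas Sox6 passed in 7 and Runx2 in 3 of them. The median gene had an interaction of −0.24, and whole buds at E9.25 are compared here with anterior tissue at E10.5.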

How the results depend on the processing

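With each library left out in turn, Pax1 at E10.5 was −4.61 to −3.96 and Emx2 −1.06 to −0.79, and both passed in 7 of 7 fits. Under the other settings Pax1 was −6.72 to −3.96 and passed in 9 of 9, and Emx2 was −1.01 to −0.86 and passed in 9 of 10. The exception was the replicate block, with Emx2 at −0.90 (limma adjusted p = 0.0519) and 1 member called in place of 2. Whether libraries that share a number form pairs is not known, and the block uses only the 6 libraries that share a number at E10.5. It left 6 of 10 girdle genes, and moved the genes called from 20 to 66 at E9.25, from 747 to 164 at E10.5, from 7520 to 4699 for stage in WT and from 348 to 138 for the interaction. Emx2 at E9.25 ranged from −0.37 to 0.023 with a library left out, changing sign without WT replicate 3, and passed under no setting. The interaction for Emx2 passed in none of its fits (adjusted p 0.0798 to 0.357).

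Counts over all genes depended more on the setting. With no filter, 0 genes passed at E9.25 (3247 at an unadjusted p under 0.05 with the filter) and 391 at E10.5. Library weights gave 53 and 1356, with 6520 for stage in Gli3-/- (3853) and 830 for the interaction, and 1 model of all libraries gave 796 and 386. With a library left out the counts were 2 to 196 at E9.25, highest without WT replicate 1, 301 to 680 at E10.5, 5139 to 8305 for stage in WT, 2129 to 4326 for stage in Gli3-/- and 150 to 1433 for the interaction. Girdle genes lower at E10.5 were 8 to 10 with a library left out. Depth limits Pax9 and Nkx3-2, which rest on at most 17 reads per kilobase in any library.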
